A study of Homo sapiens with 4 samples.

Results

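The dystrophin-glycoprotein complex was followed through 8 of its genes, which were chosen by name from the known composition of the complex in heart muscle: DMD, UTRN, DAG1, SGCA, SGCB, SGCD, SSPN and DTNA. All 8 were listed among the 23615 genes of the gene table, and their transcripts made up 57 of the 43497 transcripts of the isoform table. The complex links the actin cytoskeleton of a muscle cell to the laminin of its basement membrane. Dystrophin binds actin inside the cell and β-dystroglycan at the membrane, α-dystroglycan binds laminin outside, and the sarcoglycans with sarcospan hold the membrane part together. Loss of dystrophin or of a sarcoglycan causes muscular dystrophy, often with cardiomyopathy, and utrophin is the paralog of dystrophin that takes its place in early muscle and in other cells.

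The RNA came from day 14 cardiomyocytes made from the human embryonic stem cell line RUES2, and the study asked how cardiomyocytes obtained from endothelium compare with those made by the usual cardiac route. Both groups were induced toward anterior mesoderm with 100 ng/ml activin A, 5 ng/ml BMP4 and 1 µM of the Wnt agonist CHIR. For the ECsXAV group (2 libraries), the cells were moved on day 2 to another basal medium to make hemogenic endothelial cells. This medium held VEGF at 200 ng/ml, bFGF and further BMP4. From day 5, 2 µM XAV, a tankyrase inhibitor that blocks Wnt/β-catenin signaling, was added in RPMI medium. For the CPC group (2 libraries), cardiac progenitor cells stayed in RPMI medium and had no VEGF step. For this cardiac route, the study's supplement describes 1 µM XAV on day 3 in a subset of experiments. The methods text does not say whether the 2 sequenced CPC cultures were among them. The cells were not sorted, so each library holds every cell type of its dish, and both groups come from a single stem cell line. The names of the samples begin differently in the 2 groups, and the labels do not say what these beginnings stand for. If the groups came from separate experiments, the experiment and the group cannot be told apart.

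Levels are given as FPKM, fragments per kilobase of transcript scaled to the mapped fragments of the library, as the authors deposited them, and levels of different genes are compared only on this per-length scale. The total depth of the libraries is unknown. From the whole-read steps of very low values, ECsXAV replicate 2 had 50.1% of the depth of ECsXAV replicate 1, CPC replicate 1 had 86.9% and CPC replicate 2 had 79.8%. Between 12070 and 12240 genes reached 1 FPKM in each library. The 12 cardiomyocyte markers were all expressed, with a summed level of 15952 to 18800 FPKM per library, so cardiomyocyte RNA was present in both groups. MYL7 was the largest part of this sum, with 8786 and 8535 FPKM in ECsXAV and 6701 and 7142 FPKM in CPC. The sum does not measure the share of cardiomyocytes, which the paper took from flow cytometry for troponin T. Among the markers of other cells, the summed level of 10 fibroblast markers was 192 and 227 FPKM in ECsXAV and 107 and 105 FPKM in CPC. The sum of 8 smooth muscle markers was 357 and 323 FPKM in ECsXAV and 209 and 225 FPKM in CPC, and the sum of 18 skeletal muscle markers was 46.3 and 65.4 FPKM in ECsXAV and 161 and 155 FPKM in CPC.

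Differences were taken on the log2(FPKM + 1) scale as CPC minus ECsXAV, so a negative value is lower in CPC, and the added 1 understates differences of weakly expressed genes. The 12398 genes with a mean of at least 1 FPKM were tested with limma, and a gene was called at an adjusted p under 0.05 with a fold over 2. Of the 8 genes, 7 were tested, and SGCD stayed below the filter. None of the 7 was called by limma, beside 2.15% of all tested genes. None had an adjusted p under 0.05 at any fold, beside 2.89% of all tested genes. Without adjustment, 4 of the 7 had a p under 0.05 (SSPN, SGCA, UTRN and DTNA, all lower in CPC), beside 18.2% of all tested genes. The libraries of the groups did not overlap for 6 of the 7 genes, beside 49.8% of all tested genes. DMD and SGCB were the higher ones in CPC among these 6, and the other 4 were lower. The median difference of the 7 genes was -0.41, beside a median of -0.0045 over all tested genes. For a single value, the exact two-sided permutation p of 2 libraries against 2 is at least 0.333, so the limma p-values rest on a spread shared across genes. In these unsorted cultures, fewer cells of a type and less RNA per cell cannot be told apart.

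The order of the levels was the same in both groups: DAG1, DMD, SGCB, SGCA, DTNA, UTRN, SSPN and, last, SGCD. In ECsXAV the libraries of DMD and SGCB overlapped, as did those of SGCB and SGCA, and the other neighbours in this order were separate. In CPC every pair of neighbours was separate. DAG1 was above 93.2% of all tested genes by its mean FPKM, DMD above 85.1%, SGCB above 82.6% and SGCA above 76.4%. DTNA was above 64.1%, UTRN above 57.7% and SSPN above 16.8%. The complex was therefore expressed at a high to middle level except for sarcospan, which was low, and δ-sarcoglycan, which was nearly absent.

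**Figure D1:**
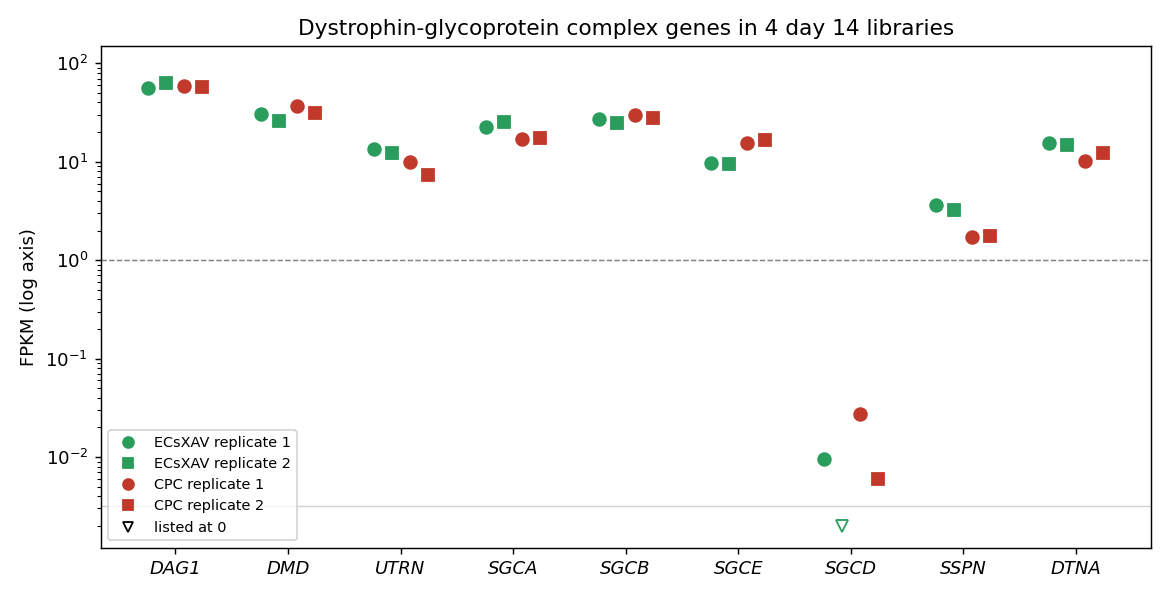
FPKM (log axis) of the 8 genes and of the sarcoglycan SGCE in each of the 4 libraries, with ECsXAV in green, CPC in red, circles for replicate 1 and squares for replicate 2. The dashed line marks 1 FPKM, and the open triangle below the grey line stands for a value listed at 0. SGCD lies at or below 0.0273 FPKM in every library, while DAG1, DMD, SGCA and SGCB lie at or above 17.0 FPKM.

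The sequences around 3 of the start sites are shown. Those of DMD and SSPN were picked because they were the windows of the 8 genes that held a CArG box. That of SGCD was picked because this gene was nearly absent. They are windows from 250 bases before to 50 after a RefSeq start (GRCh38.p14), and 7 of the 8 genes had such a window, 22 windows in all. Capitals mark a CArG box, the site of serum response factor, in the DMD window chrX:33211500-33211799 (minus strand) and the SSPN window chr12:26195086-26195385 (plus strand). In the SGCD window chr5:156326914-156327213 (plus strand), capitals mark E-boxes, the sites of basic helix-loop-helix factors such as the MyoD family. The DMD and SSPN windows shown also hold 2 E-boxes each, which are left in lower case.
DMD: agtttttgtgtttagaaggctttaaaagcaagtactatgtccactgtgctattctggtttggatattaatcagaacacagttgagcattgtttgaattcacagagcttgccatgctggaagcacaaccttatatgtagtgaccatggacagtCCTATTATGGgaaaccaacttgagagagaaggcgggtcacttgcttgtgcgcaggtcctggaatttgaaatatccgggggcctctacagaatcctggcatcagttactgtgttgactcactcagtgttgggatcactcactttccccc
SSPN: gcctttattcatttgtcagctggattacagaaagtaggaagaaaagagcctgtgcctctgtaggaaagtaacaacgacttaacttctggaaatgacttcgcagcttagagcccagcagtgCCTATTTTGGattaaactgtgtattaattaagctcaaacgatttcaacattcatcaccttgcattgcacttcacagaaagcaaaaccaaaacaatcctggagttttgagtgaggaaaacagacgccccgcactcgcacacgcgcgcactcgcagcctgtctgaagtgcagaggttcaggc
SGCD: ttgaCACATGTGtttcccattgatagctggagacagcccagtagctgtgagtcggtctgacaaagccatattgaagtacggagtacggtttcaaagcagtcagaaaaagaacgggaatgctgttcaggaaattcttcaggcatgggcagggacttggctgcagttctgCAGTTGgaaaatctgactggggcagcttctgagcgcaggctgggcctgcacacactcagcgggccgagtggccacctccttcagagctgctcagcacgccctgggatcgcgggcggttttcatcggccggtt

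The CArG box of DMD, CCTATTATGG, lay 98 bases before the start, and that of SSPN, CCTATTTTGG, 130 bases before it. These were the only CArG boxes in the 22 windows, and 1.29% of 35116 windows of all genes held one. No GENCODE transcript was found to hold the start of this SSPN window. The other SSPN window, whose start is held by a GENCODE transcript, had no CArG box. The SGCD window held 3 E-boxes (CANNTG), at 246, 244 and 82 bases before the start, the first pair overlapping each other. E-boxes stood in 15 of the 22 windows and in 68.7% of all windows, so they are common sequences. The MCAT element with the letters CATTCC was found in 2 of the 22 windows and in 14% of all windows. The letters GATAAG, read by GATA factors, were found in 1 of the 22 and in 6.36% of all. The letters TATAAA of the TATA box were found in 4 of the 22 (2 of 7 genes) and in 11.5% of all. Some windows of a gene overlap, and a pair of the DMD windows with TATAAA differ by 1 base in position, so they hold the same site. A MEF2 site was found in none of the 22 windows and in 2.99% of all windows. Both strands were searched, and a match of letters is a description and not a bound site.

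DMD (chrX:31115794-33357726, GRCh37, minus strand) encodes dystrophin. Its level was 30.2 and 26.1 FPKM in ECsXAV and 37.04 and 31.5 FPKM in CPC. Both CPC libraries were above both ECsXAV libraries, with a mean of 34.2 ± 3.95 FPKM (SD, n = 2) against 28.1 ± 2.92 FPKM. The log2 difference was 0.27 (SE 0.14, 95% interval -0.09 to 0.63, limma adjusted p 0.395), so it did not pass the test. The upper bound of the interval leaves out a doubling on this scale.

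UTRN (chr6:144606471-145174170, plus strand) encodes utrophin, which binds the same dystroglycan as dystrophin. Its level was 13.4 and 12.3 FPKM in ECsXAV and 9.91 and 7.30 FPKM in CPC. The groups did not overlap, with ECsXAV the higher one by 1.49 times in the means (12.8 ± 0.756 against 8.60 ± 1.85 FPKM, SD, n = 2). The difference on the log2 scale was -0.54 (SE 0.17, 95% interval -0.97 to -0.11), with an unadjusted p of 0.0235 and a limma adjusted p of 0.185.

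The ratio of dystrophin to utrophin RNA compares the paralogs within a library and does not depend on how libraries are scaled to each other. It was 2.26 and 2.12 in the ECsXAV replicates and 3.74 and 4.31 in the CPC replicates. DMD RNA, summed over all its transcripts, thus exceeded UTRN RNA in all 4 libraries, and more so in both CPC libraries. The means of the ratio were 2.19 ± 0.0984 and 4.03 ± 0.404 (SD, n = 2), and the exact two-sided permutation p was 0.333, the smallest that 2 against 2 can give. The full-length DMD transcripts alone stood at 22.3 and 19.5 FPKM in ECsXAV and at 31.0 and 11.7 FPKM in CPC. UTRN stood at 13.4 and 12.3 FPKM in ECsXAV and at 9.91 and 7.30 FPKM in CPC. The ratio of CPC replicate 2 thus includes much short DMD RNA, and no separation is claimed for the full-length form. The ratio of DMD to DAG1 was 0.536 and 0.418 in ECsXAV and 0.631 and 0.542 in CPC, where the lowest CPC library was barely above the highest ECsXAV library.

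DMD has several promoters, and its products are named by their mass: Dp427 is the full-length protein with the actin-binding end, and Dp260, Dp140, Dp116, Dp71 and Dp40 start further downstream and lack that end. The transcripts were summed by product as the authors' program had divided the reads among them. Dp427 transcripts stood at 22.3 and 19.5 FPKM in ECsXAV and at 31.0 and 11.7 FPKM in CPC. As a share of all DMD transcripts this was 73.8% and 74.9% in ECsXAV and 83.6% and 37.1% in CPC. CPC replicate 2 therefore stood apart from the other 3 libraries, although its total DMD level did not. The CPC minus ECsXAV difference in this share was -13.97 percentage points with CPC replicate 2 (exact permutation p 1.0) and 9.31 points without it, so no direction is given.

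Dp71, the short product found in most tissues, stood at 5.42 and 2.21 FPKM in ECsXAV and at 1.08 and 10.3 FPKM in CPC. Dp140 stood at 0.773 and 1.96 FPKM in ECsXAV and at 2.37 and 5.14 FPKM in CPC, and Dp40 at 1.73 and 2.33 FPKM against 2.62 and 0.523 FPKM. Dp260, the product known from retina, reached 3.85 FPKM in CPC replicate 2 and at most 0.0553 FPKM in the other 3 libraries. Dp116, the Schwann cell product, was at most 0.00348 FPKM. Among the full-length forms, the muscle transcript Dp427m had 17.9 and 13.0 FPKM in ECsXAV and 19.6 and 4.84 FPKM in CPC (NM_004006). The form annotated as Dp427l had 4.37 and 6.57 FPKM in ECsXAV and 11.3 and 6.82 FPKM in CPC (NM_004007). All these products share exons with one another, and the error of the division was not used here.

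**Figure D2:**
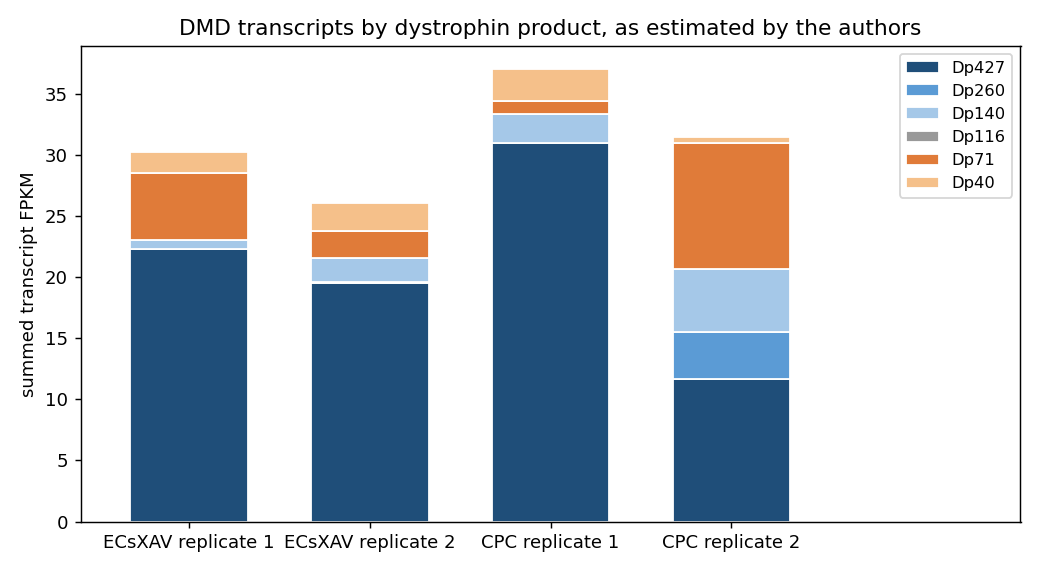
Summed FPKM of the DMD transcripts of each dystrophin product in the 4 libraries, stacked so that the height of a bar is the total of the DMD transcripts. Full-length Dp427 is the largest part in every library, from 11.7 FPKM in CPC replicate 2 to 31.0 FPKM in CPC replicate 1, and Dp71, Dp140 and Dp260 are highest in CPC replicate 2.

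DAG1 (chr3:49506146-49573051, plus strand) encodes both dystroglycans, which are cut from a single precursor. Its level was 56.3 and 62.4 FPKM in ECsXAV and 58.7 and 58.0 FPKM in CPC. The CPC libraries lay within the range of the ECsXAV libraries, and the means were 59.3 ± 4.28 and 58.3 ± 0.513 FPKM (SD, n = 2). The log2 difference was -0.02 (SE 0.11, 95% interval -0.31 to 0.27, limma adjusted p 0.939). This interval is narrow enough to leave out a difference of 2-fold in either direction on the log2(FPKM + 1) scale. Of its 13 transcripts, NM_001177639 carried 93.7% of the level in both ECsXAV replicates and 96.1% and 94.0% in the CPC replicates.

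The sarcoglycans form a subcomplex in the membrane, to which α-, β- and δ-sarcoglycan belong. SGCA (chr17:48241575-48253289, plus strand), the α member, is specific to striated muscle. Its level was 22.7 and 25.3 FPKM in ECsXAV and 17.0 and 17.5 FPKM in CPC. The ECsXAV libraries were both above the CPC libraries, by 1.39 times in the means (24.0 ± 1.79 against 17.3 ± 0.323 FPKM, SD, n = 2). The log2 difference was -0.45 (SE 0.11, 95% interval -0.74 to -0.16), with an unadjusted p of 0.01001 and a limma adjusted p of 0.124.

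SGCB (chr4:52886872-52904465, minus strand), the β member, is expressed broadly and forms the core of the subcomplex with δ-sarcoglycan. Its level was 26.9 and 24.5 FPKM in ECsXAV and 30.0 and 27.6 FPKM in CPC. Both CPC libraries were above both ECsXAV libraries, by 1.12 times in the means (28.8 ± 1.71 against 25.7 ± 1.72 FPKM, SD, n = 2). This is a log2 difference of 0.16 (SE 0.11, 95% interval -0.14 to 0.45, limma adjusted p 0.533). SGCA and SGCB therefore lay on opposite sides of zero, and their ratio was 0.845 and 1.03 in ECsXAV and 0.569 and 0.635 in CPC. The means of the ratio were 0.938 ± 0.132 and 0.602 ± 0.0470 (SD, n = 2), with an exact two-sided permutation p of 0.333.

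SGCD (chr5:155297354-156194799, plus strand) encodes δ-sarcoglycan, the partner of β-sarcoglycan in both striated and smooth muscle. Its level was 0.00946 and 0 FPKM in ECsXAV and 0.0273 and 0.00592 FPKM in CPC. If the lowest value above 0 stands for 1 read, these are 2, 0, 5 and 1 reads, and the values depart from whole reads by at most 0.00965 of a read. The level of SGCD was at most 0.0909% of the level of SGCB in any library. It was too low to be tested, no fold is given, and a difference between the groups was not detectable at this depth.

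Further sarcoglycans were measured beside it. SGCE encodes ε-sarcoglycan, which can stand in the place of α-sarcoglycan. Its level was 9.74 and 9.44 FPKM in ECsXAV and 15.5 and 16.4 FPKM in CPC. The CPC libraries were both higher, by a log2 difference of 0.68 (SE 0.11), and the limma adjusted p of 0.05002 was just above the threshold. SGCZ, the ζ member, had at most 2 reads per library by the same steps as SGCD.

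The ratio of SGCE to SGCA was 0.428 and 0.374 in ECsXAV and 0.908 and 0.939 in CPC. The ε member was thus below the α member in all 4 libraries, and nearly equal to it in CPC. The means were 0.401 ± 0.0386 and 0.924 ± 0.0221 (SD, n = 2), with an exact two-sided permutation p of 0.333. SGCE to SGCB was 0.362 and 0.386 in ECsXAV and 0.517 and 0.597 in CPC. Both ratios with SGCE were higher in both CPC libraries.

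**Figure D3:**
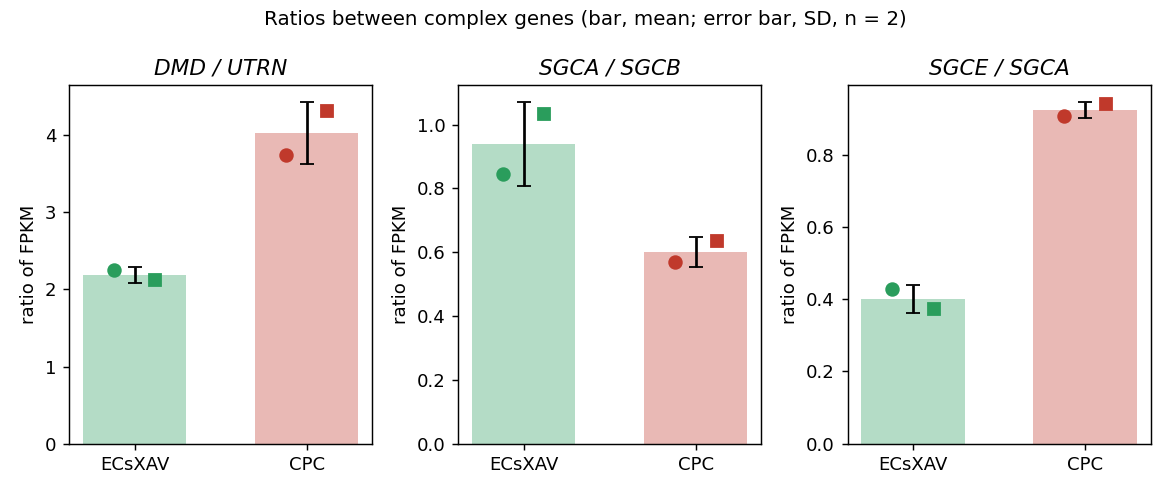
Ratios of FPKM between pairs of complex genes within each library (points, circles for replicate 1 and squares for replicate 2), with the mean as a bar and the SD over 2 libraries as the error bar. DMD over UTRN is 2.12 to 2.26 in ECsXAV and 3.74 to 4.31 in CPC, SGCA over SGCB is higher in ECsXAV, and SGCE over SGCA is 0.374 to 0.428 in ECsXAV and 0.908 to 0.939 in CPC. The DMD level sums its full-length and short transcripts.

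SSPN (chr12:26274924-26452223, plus strand) encodes sarcospan, a membrane protein with 4 spans that binds the sarcoglycans. Its level was 3.65 and 3.26 FPKM in ECsXAV and 1.73 and 1.76 FPKM in CPC. The ECsXAV libraries were both above the CPC libraries, by 1.98 times in the means (3.46 ± 0.275 against 1.75 ± 0.0216 FPKM, SD, n = 2). The difference on the log2 scale was -0.70 (SE 0.13, 95% interval -1.04 to -0.36), with an unadjusted p of 0.00341 and a limma adjusted p of 0.0745. It was the largest difference among the 7 tested genes and did not pass the test. As a percentage of DAG1, sarcospan stood at 6.48 and 5.23 in ECsXAV and at 2.95 and 3.04 in CPC. Of its transcripts, NM_005086 took 47.7% and 15.4% of the level in ECsXAV and 16.7% and 0.0039% in CPC, so the groups overlapped in this share (exact permutation p 0.667).

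DTNA (chr18:32073255-32471808, plus strand) encodes α-dystrobrevin, a relative of dystrophin inside the cell that binds dystrophin and the syntrophins. Its level was 15.5 and 14.8 FPKM in ECsXAV and 10.1 and 12.3 FPKM in CPC. The groups did not overlap, with ECsXAV higher by 1.35 times in the means (15.1 ± 0.509 against 11.2 ± 1.504 FPKM, SD, n = 2). The log2 difference was -0.41 (SE 0.13, 95% interval -0.75 to -0.07), with an unadjusted p of 0.0271 and a limma adjusted p of 0.199. DTNB, the β-dystrobrevin of non-muscle cells, was lower than DTNA in every library, and the ratio of DTNA to DTNB was 3.19 and 2.60 in ECsXAV and 2.04 and 2.00 in CPC. NM_001392 took 27.7% and 47.9% of the DTNA level in ECsXAV and 25.5% and 39.5% in CPC. NM_001198938 took 20.2% and 22.8% in ECsXAV and 25.8% and 29.4% in CPC, where the groups did not overlap (exact permutation p 0.333). It led in CPC replicate 1, and NM_001392 in the other 3 libraries. NM_001128175 took 26.0% and 6.75% in ECsXAV and 17.9% and nearly none in CPC.

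Of the 57 transcripts, 16 had a mean of at least 1 FPKM and were tested with limma. None was called, beside 0.0727% of the 16504 transcripts tested. Without adjustment 1 of the 16 had a p under 0.05, the single transcript of UTRN (NM_007124), beside 13.1% of all tested transcripts. The 2 SGCA transcripts both stood lower in CPC in their means, with log2 differences of -0.30 for NM_000023 and -1.11 for NM_001135697 (SE 0.20 and 0.60). The transcripts thus gave no call that the gene level did not.

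The rest of the complex was described by 20 other genes for sarcoglycans, dystrobrevins, syntrophins and the cytolinkers around them. Of these, 11 were tested, none was called or had an adjusted p under 0.05, and 3 had an unadjusted p under 0.05. Their median log2 difference was -0.11, from -0.95 for KRT19 to 0.68 for SGCE. KRT19 encodes a keratin that binds the actin-binding end of dystrophin, and it stood at 178 and 223 FPKM in ECsXAV and at 82.1 and 128 FPKM in CPC. SNTG1, a syntrophin of brain, was listed at 0 in all 4 libraries. NOS1, the neuronal nitric oxide synthase that docks on the complex in skeletal muscle, stood at 0.00853 FPKM in ECsXAV replicate 2 and was listed at 0 in the other libraries. KRT8, the partner of KRT19, was listed at 0 in ECsXAV replicate 1 and CPC replicate 2 beside 99.0 and 55.7 FPKM in the other 2 libraries, and such a 0 can be a failed estimate.

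Among the lists around dystroglycan, its extracellular ligands held the calls. Of 13 genes for dystroglycan ligands, 11 were tested and 2 were called, both lower in CPC, with a median log2 difference of -0.28 over the 11. LAMB1, the laminin β1 chain, stood at 59.8 and 61.3 FPKM in ECsXAV and at 15.2 and 16.7 FPKM in CPC. It fell by 1.86 on the log2 scale (limma adjusted p 0.00705) and was called without each library in turn. LAMA2, the laminin α2 chain of the muscle basement membrane, stood at 35.6 and 31.2 FPKM in ECsXAV and at 11.02 and 14.7 FPKM in CPC. It fell by 1.32 (limma adjusted p 0.0364), a call that was lost without ECsXAV replicate 1 (adjusted p 0.109), ECsXAV replicate 2 (0.122), CPC replicate 1 (0.102) or CPC replicate 2 (0.0784). LAMA1, the α1 chain of early embryos, stood at 29.4 and 31.3 FPKM in ECsXAV and at 17.2 and 17.7 FPKM in CPC, with a difference of -0.76 that had an adjusted p of 0.0410 but stayed under 2-fold, and that p was 0.110 to 0.281 without 1 library. The largest difference the other way was that of LAMB2, the β2 chain of mature muscle, with 81.5 and 81.2 FPKM in ECsXAV and 105 and 103 FPKM in CPC (0.35, adjusted p 0.177). The fibroblast and smooth muscle markers were also lower in CPC in their summed level, although LMOD1, ACTA2, MYH11, PDGFRA and POSTN in those lists had a higher mean in CPC. MYH11, the smooth muscle myosin heavy chain, was too low to be tested, with 0.0844 and 0.154 FPKM in ECsXAV and 0.351 and 0.433 FPKM in CPC. The endoderm markers AFP and TTR were lower in CPC too. The part of these cells in the laminin values was not tested.

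Of 20 genes that glycosylate α-dystroglycan so that it can bind laminin, 19 were tested and none was called. Of the 19, 2 had an unadjusted p under 0.05, and the median log2 difference was 0.11. The range ran from -0.24 for DPM3, a subunit of dolichol-phosphate mannose synthase, to 0.59 for B4GAT1, which primes the laminin-binding glycan. B4GAT1, listed as B3GNT1, stood at 22.3 and 23.6 FPKM in ECsXAV and at 35.3 and 34.7 FPKM in CPC, with a limma adjusted p of 0.0640.

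The α7β1 integrin is the other laminin receptor of the muscle membrane and is tied to actin through talin and vinculin. Its 8 genes were all tested, and 1 was called. TLN2, the talin of striated muscle, stood at 11.5 and 9.97 FPKM in ECsXAV and at 3.43 and 3.75 FPKM in CPC. It fell by 1.35 on the log2 scale (limma adjusted p 0.0195), a call that was lost without ECsXAV replicate 1 (adjusted p 0.0727), ECsXAV replicate 2 (0.0831), CPC replicate 1 (0.0987) or CPC replicate 2 (0.0891). ITGA7, the α7 chain itself, stood at 34.9 and 34.2 FPKM in ECsXAV and at 38.8 and 40.03 FPKM in CPC, which was the largest difference toward CPC in this list at 0.18 (adjusted p 0.424).

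**Figure D4:**
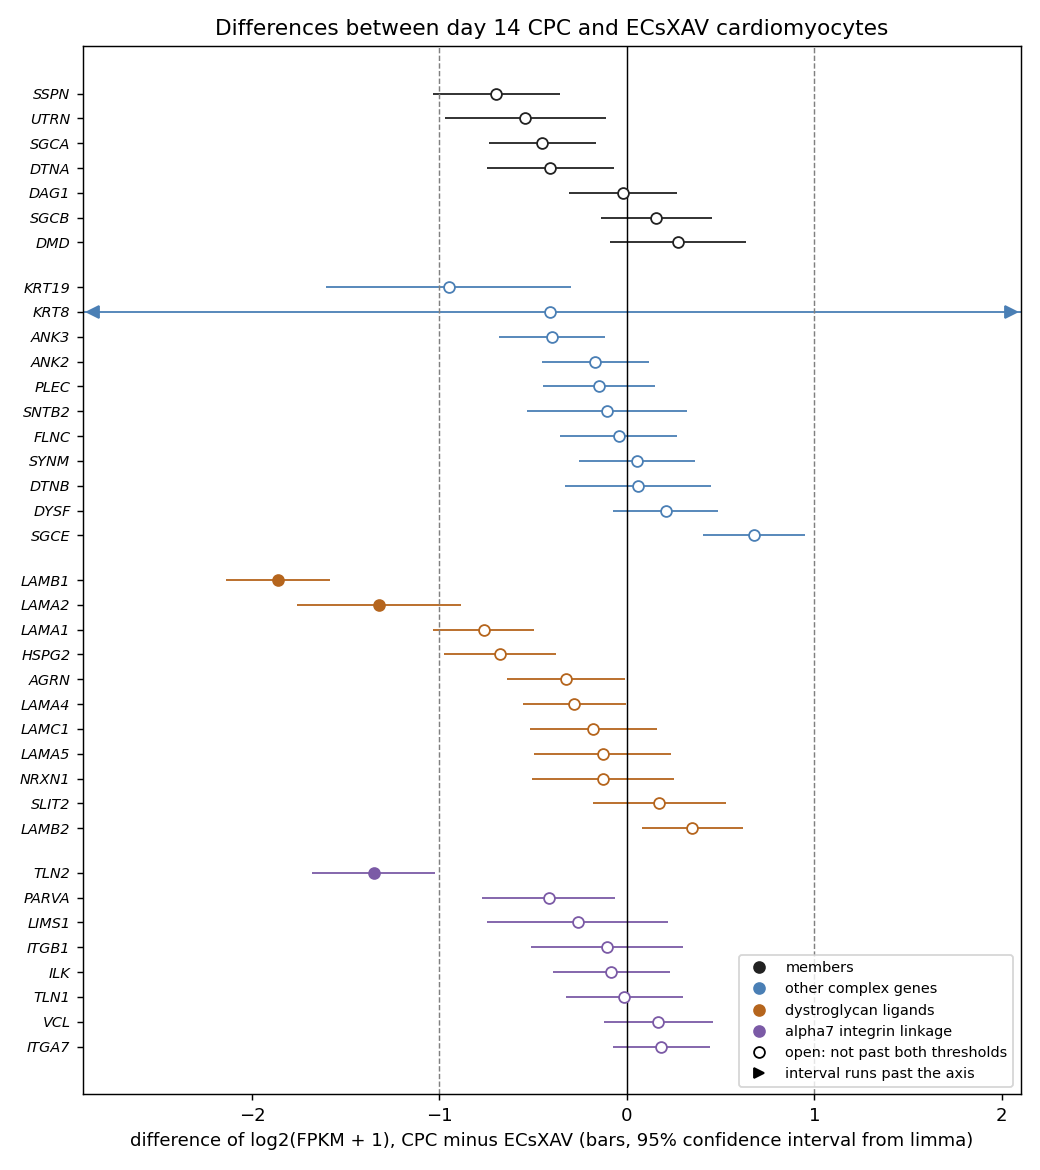
Differences of log2(FPKM + 1), CPC minus ECsXAV, with 95% confidence intervals from limma, for the tested genes of the complex (black), other complex genes (blue), dystroglycan ligands (brown) and the α7 integrin linkage (purple). Filled points passed both thresholds (LAMB1, LAMA2 and TLN2), dashed lines mark 2-fold, the points of the 7 complex genes lie between -0.70 and 0.27, and arrows mark the interval of KRT8, which runs past the axis.

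Markers of 7 cell types were set beside the values of the complex, in which SGCA, SSPN, UTRN and DTNA stood lower in CPC. Of the cardiomyocyte markers 2 of 12 were called, MYH6, the α myosin heavy chain, with 855 and 857 FPKM in ECsXAV and 2070 and 1901 FPKM in CPC, and MYH7, the β chain, with 1011 and 931 FPKM in ECsXAV and 147 and 194 FPKM in CPC. Of 10 fibroblast markers 6 were tested and 3 called, all lower in CPC (COL1A1, COL3A1 and LUM). The other way, PDGFRA had the largest difference of that list (0.19), and FAP was listed at 0 in all libraries. Of 8 smooth muscle markers 6 were tested and 1 called, TAGLN, lower in CPC (-2.51), while LMOD1, with 18.6 and 20.2 FPKM in ECsXAV and 31.7 and 30.0 FPKM in CPC, went the other way (0.64, adjusted p 0.0600).

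Of 18 skeletal muscle markers 5 were tested and 3 called, all higher in CPC (STAC3, ACTN3 and RYR1). ACTN3, the fast muscle α-actinin, made up most of the summed level of that list, with 37.2 and 55.9 FPKM in ECsXAV and 130 and 129 FPKM in CPC. TNNT3, the fast muscle troponin T, went the other way with 3.76 and 3.89 FPKM in ECsXAV and 0.988 and 1.92 FPKM in CPC (-1.002, adjusted p 0.0989, and 0.0253 under robust empirical Bayes). MYF5, MYF6, PAX7 and MYMK were listed at 0 in all libraries, and MYOD1 was at 0 in 3 of 4.

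Of 8 endoderm and epithelial markers 5 were tested, all with a lower mean in CPC, and 2 were called. KRT18 was among the 5, with 0 and 60.7 FPKM in ECsXAV and 31.4 and 0 FPKM in CPC. Its groups overlapped, and as for KRT8 such a 0 can be a failed estimate. AFP, a fetal liver and yolk sac protein, stood at 11.4 and 9.70 FPKM in ECsXAV and at 0.199 and 0.124 FPKM in CPC (-3.31, limma adjusted p 0.00308). TTR, a transport protein of liver, stood at 3.92 and 2.23 FPKM in ECsXAV and at 0 and 0.0779 FPKM in CPC (-1.94, adjusted p 0.0358). The smallest difference of that list was that of APOA1 (-0.18). Of 8 neural and glial markers 2 were tested, and TUBB3, the neuronal tubulin, was called lower in CPC (-1.53, adjusted p 0.0199), while NEFL stood at -0.77 (adjusted p 0.0699). None of the 3 tested endothelial markers of 9 was called, from -0.41 for CDH5 to 0.35 for EMCN. The summed level of the 9 was 12.9 to 13.7 FPKM in ECsXAV and 11.6 to 14.9 FPKM in CPC. Most of this sum was KDR, with 9.80 and 7.06 FPKM in ECsXAV and 10.8 and 8.69 FPKM in CPC. The others stood at 1.79 FPKM or less. Of these, CDH5, TEK, ESAM and VWF were lower in both CPC libraries, EMCN was higher, and PECAM1, TIE1 and ERG overlapped.

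Of these calls, STAC3, TAGLN and AFP were kept without each library in turn, and STAC3 (adjusted p 0.0550) and TAGLN (0.0570) were lost without the filter on low values. MYH6, MYH7, COL1A1, COL3A1, LUM, ACTN3, RYR1, TTR and TUBB3 lost theirs without at least 1 library, with an adjusted p that rose as far as 0.425 for MYH6, 0.0511 for MYH7, 0.138 for TTR and 0.0871 for TUBB3. The part of these cell types in the differences of the complex genes was not tested.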

How the data were processed

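Poly-A RNA of 4 unsorted day 14 cultures was sequenced. The authors deposited FPKM per gene and per transcript, for which the submitters' processing notes name TopHat 1.3.3, Cufflinks and hg19. The paper names Gsnap as aligner, so which alignment gave the FPKM is not certain. For its counts, the paper states strand-specific counting without reads of several alignments. For the FPKM, scaling between libraries, such reads and strand are not given in the sources used here. The study's test on counts was not repeated, and total depth is unknown. Groups and replicate numbers came from the labels, and doses from the paper. For symbols listed at several loci, the locus of highest mean FPKM was taken.

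limma 3.58.1 (R 4.3.3) was fitted with an intensity trend to log2(FPKM + 1) of all features with a mean of at least 1 FPKM, with Benjamini-Hochberg adjustment over all of them. Calls needed an adjusted p under 0.05 and a fold over 2. The steps were tested on simulated data. Ratios and shares were compared by exact permutation. Summaries used pandas 2.3.3 and NumPy 2.4.6 under Python 3.11.15, and figures matplotlib 3.10.9. Gene positions are from GENCODE on GRCh37.

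The members and lists were chosen with earlier results of these data known. The text names all members, their main transcripts, and of each other list the called genes, the largest difference in each direction and genes listed at 0, plus genes chosen after their values were seen. Some genes of the complex are not reported here and were left out of its list. Alternatives were another pseudocount, filter, scaling, variance prior, source table, a replicate block and each library left out. The limma p-values rest on the spread between 2 biological replicates a group, combined with a spread shared across genes. Exact permutation p-values come only from exchanging the group labels of the libraries.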

Additional observations from a re-analysis of the deposited data

How the results depend on the processing

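No gene of the complex was called under any of the 15 alternatives. One member, SSPN, had an adjusted p under 0.05 under robust empirical Bayes (0.0300) and, in a choice made after seeing the data, without short RNA and without genes at 0 in a library whose replicate had at least 5 FPKM (0.0181). Over its 14 alternatives SSPN ranged from -0.94 to -0.63. It fell below the filter of 5 FPKM.

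Calls over all genes numbered 266. They were 20 without a filter (12 of them higher in CPC, against 88 of 266), 152 at a mean of at least 5 FPKM and 176 with the replicate block. Without 1 library they were 59 to 159, and most were higher in CPC without CPC replicate 1 (39 of 59) or CPC replicate 2 (62 of 85), where the lone library was assumed to vary like the other group. Calls over all transcripts numbered 12. They were 1 without a filter, 29 at a mean of at least 5 FPKM, and 0 with the replicate block, without any 1 library and without short RNA. Replicate numbers are shared by the groups, but no source pairs them. The differences of replicate 1 minus 2 correlated at 0.035 (Pearson) and 0.356 (Spearman) across 12398 genes. Under the block MYH6 (adjusted p 0.0582), COL1A1 (0.0541), COL3A1 (0.0802), ACTN3 (0.0541), RYR1 (0.0700), TTR (0.0600) and TUBB3 (0.0506) lost their calls. So did LAMA2 (0.0602), as it did without a filter and under quantile normalization (0.0504). Without a filter, TLN2 and the called markers other than AFP lost theirs.

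Small differences changed sign. With 1 library left out, DAG1 ranged from -0.094 to 0.050, DTNB from -0.071 to 0.19, DPM3 from -0.50 to 0.016, PDGFRA, a fibroblast marker, from -0.0079 to 0.39 and SNTB2 from -0.24 to 0.031. The positive values were without ECsXAV replicate 2 for DAG1, without CPC replicate 1 for DPM3 and without CPC replicate 2 for SNTB2. DTNB was also -0.036 without ECsXAV replicate 1. DAG1 became 0.013 under quantile normalization. Of the transcripts, NM_001177639 of DAG1 ranged from -0.074 to 0.072 and became 0.032 under quantile normalization and 0.0072 under median-of-ratios scaling. NM_004018 of DMD ranged from -1.13 to 0.95, NM_004006 from -1.48 to 0.35 and NM_004019 from -0.99 to 0.26, in each case between the values with 1 CPC replicate and with the other. NM_001198938 of DTNA ranged from -0.23 to 0.12. The causes were not tested.

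With 2 libraries a group, no depth totals and a spread shared across genes, differences under 2-fold in weakly expressed genes such as SSPN are the least certain, and those of SGCD and SGCZ are beyond these libraries.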
